A study of Arabidopsis thaliana with 12 samples.

Results

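The response of Arabidopsis thaliana seedlings to a low dose of Rose Bengal (RB) was examined in 6 of the 12 libraries of the series. The 3 libraries labelled RB 10 µM were compared with the 3 labelled RB 0 µM, the untreated seedlings, and all 13307 genes of the deposited count table were tested. Each library came from whole Col-0 wild-type seedlings, 2 weeks old, that had been kept in water beforehand and then spent 2 h under light of 30 µE in RB at its labelled dose. No mutant allele or transgene was carried by either group. The other 6 libraries, 3 at RB 100 µM and 3 at RB 400 µM, entered the same fit, and their values are given beside those of the low dose. RB is the treatment in the sample labels, which were followed here. The paper's own index of its data lists DCMU, a herbicide, for this series. The labels do not tell whether the 3 libraries of a dose had separate cultures as their source. P-values here therefore cover the scatter among these libraries, which may be technical.

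Rose Bengal is a dye that passes the energy of absorbed light to oxygen and so makes singlet oxygen, a short-lived and reactive form of oxygen. Singlet oxygen also arises in chloroplasts from excited chlorophyll, and in plants it is known to change the expression of nuclear genes within hours. Cells that meet reactive oxygen typically use calcium and kinase signalling, stress transcription factors, jasmonate and related hormones, conjugating enzymes and chaperones, while growth genes are often turned down. The genes below are ordered by these roles.

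At RB 10 µM, 497 genes (3.73% of the 13307 tested) were called changed against RB 0 µM by edgeR's quasi-likelihood test at a Benjamini-Hochberg adjusted p under 0.05. Of these, 354 genes (2.66%) were higher and 143 (1.07%) lower, and 71.2% of the calls were rises. At an unadjusted p under 0.05 there were 1928 genes (14.5%). The median log2 fold change over all genes was 0.02. Among called genes, rises were larger than falls: the median called rise was 1.39 on the log2 scale, or 2.63-fold, and the median called fall was -0.94. The called falls were of more abundant genes, for which smaller changes were called. Their median level was 119 CPM (counts scaled to library size) at RB 0 µM, against 58.3 CPM at RB 10 µM for the called rises. At least 4-fold changes were found for 111 called genes that rose and 25 that fell, and at least 8-fold changes for 48 and 11. The smallest called changes were a log2 rise of 0.46 and a log2 fall of -0.44. All 143 called falls and 345 of the 354 called rises had no overlap between the 3 RB 10 µM and the 3 RB 0 µM libraries, whereas over all genes 10.4% were higher and 9.7% lower without overlap.

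**Figure D1:**
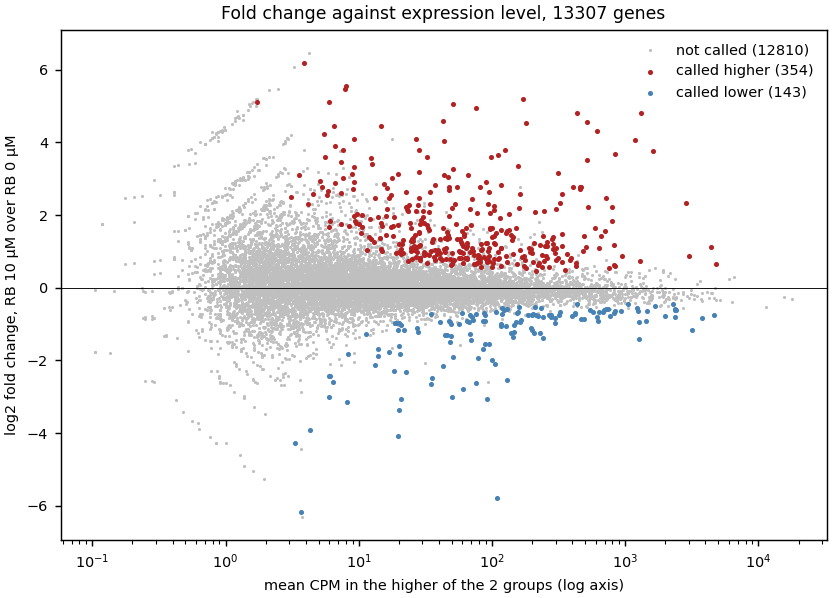
Log2 fold change of RB 10 µM over RB 0 µM for each of 13307 genes (vertical axis) against the mean level in the higher of the 2 groups in CPM (counts scaled to library size, log axis). Red points are the 354 genes called higher, blue points the 143 called lower and grey points the 12810 not called, and the called genes with the smallest changes lie at the high levels on the right.

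Calls depended on the level of a gene. Levels are given in CPM, the counts scaled to library size with TMM factors. No gene with a mean under 1 CPM was called, against 0.244% of the genes at 1 to 5 CPM, 2.1% at 5 to 20 CPM, 5.88% at 20 to 100 CPM and 11.1% at 100 CPM or more. A 3′ read count carries no length effect of the usual kind, but low genes rest on few reads, and a gene that was not called may still have changed. Calls were spread over the nuclear chromosomes, with 3.57% to 4.16% of their tested genes called. None of 64 plastid-encoded and none of 29 mitochondrion-encoded genes was called by edgeR, where 11 and 3 had an unadjusted p under 0.05, and DESeq2 called none and 1. The 3 mitochondrion-encoded genes were all lower. The summed level of the 29 was 7730 to 10600 CPM at RB 10 µM, against 10800 to 14700 CPM at RB 0 µM, though 12 of them had a positive log2 fold change. The plastid-encoded sums overlapped, at 2430 to 3550 CPM against 2260 to 3330 CPM.

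Library totals ran from 1499791 reads in RB 10 µM replicate 3 to 3608636 reads in RB 10 µM replicate 2, and 1 read was worth between 0.262 and 0.615 CPM. By genes high in a single library, RB 10 µM replicate 1 stood apart from the other libraries of its dose. Among the 6904 genes whose mean reached 10 CPM, 114 were more than 2 times as high in replicate 1 as in both other RB 10 µM libraries, against 49 for replicate 2 and 6 for replicate 3. The SD of the log2 difference was 0.462 between replicates 1 and 2, 0.475 between 1 and 3 and 0.406 between 2 and 3. A chi-square of the counts per gene, which grows with reads, was 16.1, 6.91 and 8.23 for these pairs. By that measure replicates 1 and 3 were the closest pair. The column headers give replicate 1 a well code that begins with 5, as for the untreated libraries, and replicates 2 and 3 codes that begin with 6. Without replicate 1, 261 genes were called higher (1.96%) and 90 lower (0.676%), and 251 and 83 of these were among the main calls. With replicate 1 as the only RB 10 µM library, the spread came from the other doses alone, this library being assumed to vary like theirs. That fit called 546 genes higher (4.1%) and 104 lower (0.782%), which describes the library and not the dose. For 40 of the 354 called rises replicate 1 was over 2 times both other libraries, and 10 of these 40 were still called without it.

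The genes led by replicate 1 were of a mixed kind. AT4G27090, which encodes a ribosomal protein L14, had 345, 16.5 and 11.7 CPM at RB 10 µM, against 8.48, 11.1 and 7.38 CPM at RB 0 µM. UBQ3 (AT5G03240), a polyubiquitin gene, had 304, 24.9 and 20.3 CPM at RB 10 µM, against 17.4, 17.4 and 14.3 CPM at RB 0 µM. AT3G07090, a putative thiol peptidase gene whose annotation overlaps another gene, had 105, 11.8 and 11.7 CPM at RB 10 µM, against 1.21, 2.22 and 1.74 CPM at RB 0 µM. In each of these the RB 10 µM replicates 2 and 3 lay close to the untreated libraries or far below replicate 1. Genes of mitochondrial complexes showed the same form, as for the cytochrome oxidase subunit gene COX6B (AT1G22450) with 42.6, 5.77 and 3.69 CPM against 2.83, 4.12 and 1.74 CPM and the ATP synthase gamma subunit gene ATP3 (AT2G33040) with 51.4, 9.18 and 7.38 CPM against 2.42, 5.70 and 6.51 CPM. Without replicate 1 the adjusted p (edgeR) was 0.41 for AT4G27090, 0.699 for UBQ3, 0.755 for COX6B and 0.629 for ATP3, while AT3G07090 was still called at 1.71e-04. Of 264 ribosomal proteins found by product name, 3 were called higher (1.14%, against 2.66% of all genes) and 1 lower (0.379%, against 1.07%) with all libraries. None was called without replicate 1. Called genes below that are not called without replicate 1 are marked as such. Calls lost without another library are not marked. Without RB 0 µM replicate 3 fewer genes were called than without RB 10 µM replicate 1, with 244 higher and 69 lower.

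**Figure D2:**
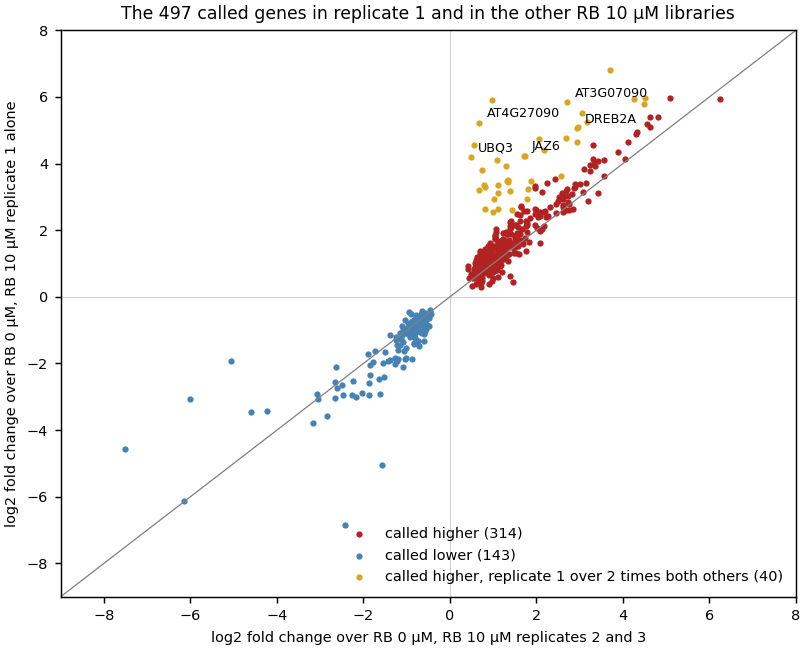
Log2 fold change over RB 0 µM of the 497 called genes in RB 10 µM replicate 1 alone (vertical axis) and in replicates 2 and 3 (horizontal axis). Points on the grey diagonal changed alike in both, and the 40 gold points, among them AT4G27090, UBQ3, JAZ6 and DREB2A, are called rises in which replicate 1 was over 2 times both other libraries.

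Calcium and kinase signalling genes were among the rises. Of 9 calmodulin-like and touch genes, 3 were called higher (33.3%, against 2.66% of all genes) and none lower, with and without replicate 1. CML37 (AT5G42380), a calmodulin-like calcium sensor, had 158, 82.4 and 94.1 CPM at RB 10 µM, against 6.86, 13.6 and 5.21 CPM at RB 0 µM. Its level rose 12.5-fold (log2 fold change 3.64, SE 0.29, edgeR adjusted p = 6.79e-08), with every RB 10 µM library far above every untreated one. TCH3 (AT2G41100), a touch-induced calmodulin-like gene that overlaps another annotated gene, had 3282, 2467 and 3271 CPM at RB 10 µM, against 1723, 1554 and 1669 CPM at RB 0 µM, and rose by a log2 fold change of 0.87 (SE 0.14, edgeR adjusted p = 4.54e-04). CBP60G (AT5G26920), a calmodulin-binding transcription factor of salicylate synthesis, was also called, at 53.9, 61.1 and 54.1 CPM against 20.2, 33.9 and 30.0 CPM. Another calcium-binding protein gene, AT4G27280, chosen after values were seen, had 565, 316 and 493 CPM at RB 10 µM, against 65.4, 71.5 and 73.4 CPM at RB 0 µM (log2 fold change 2.70, SE 0.18). AT1G21550, an EF-hand gene among the 15 largest rises, had 57.1, 9.97 and 17.2 CPM against 1.21, 2.53 and 2.17 CPM, with replicate 1 more than 2 times both other libraries.

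Of 17 mitogen-activated protein (MAP) kinase cascade genes, 2 were called higher (11.8%, against 2.66% of all genes) and none lower. MKK4 (AT1G51660), a MAP kinase kinase of the immune cascade, had 80.3, 73.2 and 81.8 CPM at RB 10 µM, against 42.0, 44.3 and 38.6 CPM at RB 0 µM. MAPKKK19 (AT5G67080) had 48.3, 34.4 and 46.1 CPM against 9.29, 19.0 and 12.2 CPM. Both rises were without overlap between the groups, and the annotations of both genes overlap a neighbour. The median of the 17 genes was 0.05, close to that of all genes. Of 15 wall-associated kinases and immune receptors of the FLS2 kind, 1 was called (6.67% higher, against 2.66% of all genes). This was RBOHD (AT5G47910), the NADPH oxidase of the plasma membrane that was placed in this list. It had 211, 355 and 194 CPM at RB 10 µM, against 132, 175 and 112 CPM at RB 0 µM. RIPK (AT2G05940), a receptor-like cytoplasmic kinase, had 25.0, 32.8 and 24.6 CPM against 11.3, 15.2 and 15.6 CPM, and none of 16 cysteine-rich receptor-like kinases was called by edgeR or DESeq2, with 3 higher at an unadjusted p under 0.05.

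Among genes of secretion that were chosen after values were seen, 5 rises are given. The plasma membrane syntaxins SYP121 (AT3G11820) and SYP122 (AT3G52400) had 333, 328 and 348 CPM against 193, 219 and 211 CPM and 259, 256 and 257 CPM against 114, 124 and 110.3 CPM. Within each gene the replicates of a group lay close together. The exocyst subunit genes EXO70B1 (AT5G58430), EXO70H7 (AT5G59730) and EXO70H4 (AT3G09520) were all called higher, with log2 fold changes of 0.79, 1.01 and 1.69. No list of secretion genes was counted.

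Members of several transcription factor families rose. Of 58 AP2/ERF factors, 12 were called higher (20.7%, against 2.66% of all genes) and 2 lower (3.45%, against 1.07%). The same count of 12 was higher without replicate 1, and none was then lower. ERF6 (AT4G17490), a target of the immune MAP kinases, had 235, 241 and 259.6 CPM at RB 10 µM, against 55.7, 64.6 and 50.4 CPM at RB 0 µM, a 4.29-fold rise (edgeR adjusted p = 6.28e-09). ERF13 (AT2G44840) had 34.9, 30.2 and 20.3 CPM against 5.25, 6.65 and 3.47 CPM, and ERF98 (AT3G23230, listed as TDR1) had 8.10, 10.2 and 9.23 CPM against 0.404, 1.58 and 0.434 CPM. ORA47 (AT1G74930), a regulator of jasmonate synthesis genes, had 4.93, 6.56 and 4.31 CPM against 0.404, 1.58 and 0 CPM. All 3 had every RB 10 µM library above every untreated one, ORA47 and ERF98 on few reads. ERF105 (AT5G51190), ERF5 (AT5G47230) and ERF-1 (AT4G17500) rose by log2 fold changes of 2.05, 1.35 and 0.86. DREB2A (AT5G05410), a dehydration and heat factor, had 90.5, 22.6 and 17.8 CPM at RB 10 µM, against 2.02, 3.17 and 2.60 CPM at RB 0 µM, so that its size rested largely on replicate 1, and it stayed called without it (edgeR adjusted p = 0.00255). The other direction was taken by ORA59 (AT1G06160), which joins jasmonate and ethylene signals, with 84.2, 98.1 and 75.1 CPM against 132, 128 and 132 CPM, and by TINY (AT5G25810), with 0.352, 6.30 and 1.23 CPM against 12.1, 12.0 and 15.6 CPM. Neither fall was called without replicate 1 (edgeR adjusted p = 0.109 and 0.098).

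Of 8 C2H2 zinc finger factors of the ZAT kind, 5 were called higher (62.5%, against 2.66% of all genes), and all 8 had a positive log2 fold change. ZAT12 (AT5G59820, listed as RHL41) had 417, 401 and 399.9 CPM at RB 10 µM, against 44.8, 88.0 and 43.4 CPM at RB 0 µM, a 6.84-fold rise (log2 fold change 2.77, SE 0.21, edgeR adjusted p = 5.37e-08). The 3 RB 10 µM values were nearly equal and lay more than 4 times above the highest untreated value. ZAT10 (AT1G27730, listed as STZ) had 865, 703 and 808 CPM at RB 10 µM, against 222, 226 and 214 CPM at RB 0 µM. ZAT6 (AT5G04340) and ZAT7 (AT3G46090) rose 2.14-fold and 4.31-fold. ZAT11 (AT2G37430) had 11.6, 3.67 and 1.23 CPM against 0.404, 0 and 0.434 CPM, and was not called without replicate 1 (edgeR adjusted p = 0.184). The summed level of the 8 genes was 1970 to 2150 CPM at RB 10 µM, against 745 to 771 CPM at RB 0 µM.

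Of 45 WRKY factors, 6 were called higher (13.3%, against 2.66% of all genes) and 1 lower (2.22%, against 1.07%), and 5 and 1 without replicate 1. WRKY33 (AT2G38470), a regulator of camalexin synthesis and of defence against fungi that kill their host's cells, had 380.0, 223 and 301 CPM at RB 10 µM, against 58.9, 76.3 and 65.6 CPM at RB 0 µM (log2 fold change 2.16, SE 0.19, edgeR adjusted p = 3.87e-07). WRKY40 (AT1G80840), which restrains immune genes, had 146, 171 and 138 CPM against 45.6, 65.5 and 33.0 CPM. Both genes overlap a neighbour in the annotation. WRKY6 (AT1G62300), WRKY53 (AT4G23810) and WRKY31 (AT4G22070) rose by log2 fold changes of 0.67, 0.95 and 1.50. WRKY65 (AT1G29280) fell, with 69.0, 108 and 72.0 CPM against 169.6, 157 and 157 CPM. WRKY proteins bind the W-box, of which the core TTGAC was searched on both strands in the 250 bases before each annotated gene start. It was found in 57.1% of the genes called higher, in 52.4% of those called lower and in 45.4% of all 13213 tested genes with such a window, which is a description and not a test. The window of WRKY33 is shown because WRKY33 is itself a W-box binding factor that rose. It is chr2:16107985-16108234 on the plus strand of the RefSeq genome TAIR10.1, printed 5′ to 3′, with its W-box cores in capitals, both read from the minus strand.
WRKY33: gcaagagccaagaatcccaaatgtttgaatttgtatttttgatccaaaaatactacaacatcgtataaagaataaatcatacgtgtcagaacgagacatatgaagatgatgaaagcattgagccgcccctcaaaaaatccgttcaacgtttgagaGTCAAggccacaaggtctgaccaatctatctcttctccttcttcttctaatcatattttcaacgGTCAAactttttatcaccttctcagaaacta

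Of 45 NAC factors, 6 were called higher (13.3%, against 2.66% of all genes) and 1 lower (2.22%, against 1.07%). ATAF1 (AT1G01720) and ATAF2 (AT5G08790), stress factors of this family, had 222, 255 and 209 CPM against 93.3, 96.2 and 112 CPM and 693, 547 and 541 CPM against 175, 219 and 179.7 CPM. NAC102 (AT5G63790) had 453, 289.6 and 266 CPM against 117, 124 and 118 CPM. These 3 were the ones still called without replicate 1, and the annotations of all 3 overlap a neighbour. The abscisic acid-induced RD26 (AT4G27410) was called lower, with 56.4, 47.5 and 57.8 CPM against 75.9, 84.5 and 102 CPM, and not without replicate 1 (edgeR adjusted p = 0.0612). Of 39 MYB factors, 3 were called higher (7.69%, against 2.66% of all genes) and 1 lower (2.56%, against 1.07%), and only MYB51 was called without replicate 1. MYB51 (AT1G18570), which turns on indole glucosinolate synthesis, had 53.9, 64.5 and 72.6 CPM at RB 10 µM, against 24.2, 22.2 and 14.3 CPM at RB 0 µM. MYB94 (AT3G47600), a factor of wax synthesis, had 8.45, 9.97 and 9.84 CPM against 18.2, 15.8 and 21.7 CPM (edgeR adjusted p = 0.0377, and 0.16 without replicate 1). None of 21 B-box factors was called by edgeR or DESeq2, with 2 higher and 2 lower at an unadjusted p under 0.05.

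**Figure D3:**
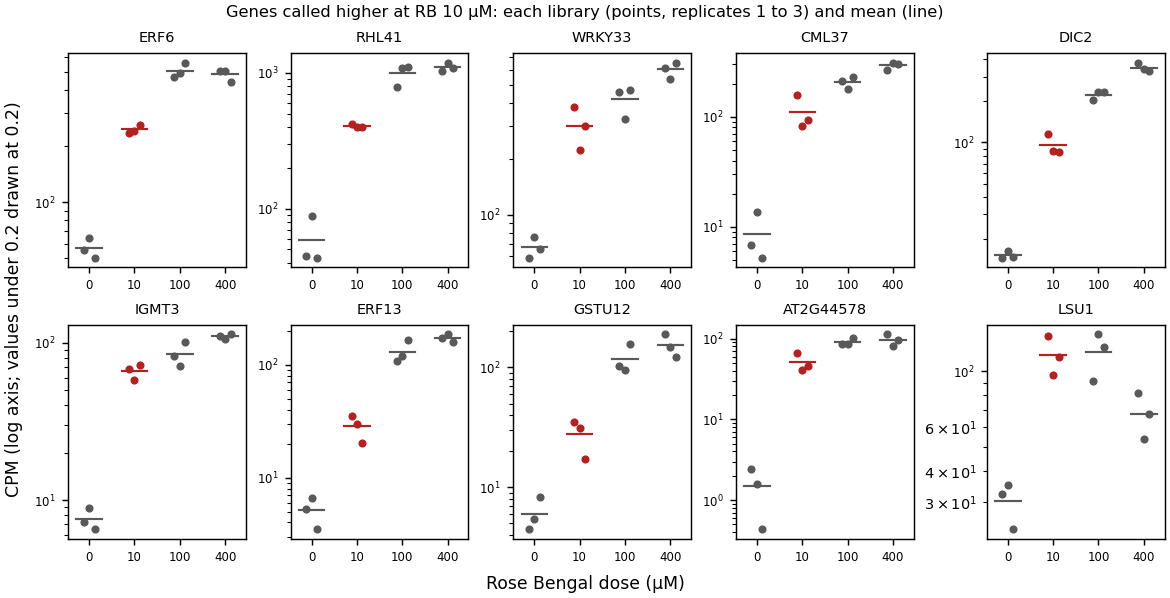
Level in CPM (log axis) of 10 genes called higher at RB 10 µM, in each library (points) and as the mean of 3 libraries (line), at RB 0, 10, 100 and 400 µM, with RB 10 µM in red. ZAT12 is drawn as RHL41. In ERF6, WRKY33, CML37 and DIC2 the RB 10 µM libraries lie between the untreated ones and those at 400 µM, and LSU1 is lower at 400 µM than at 10 µM.

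Jasmonate genes were changed in part. Of 21 genes of jasmonate synthesis and turnover, 5 were called higher (23.8%, against 2.66% of all genes) and 1 lower (4.76%, against 1.07%), and 4 and none without replicate 1. The enzymes that rose were the lipoxygenase LOX4 (AT1G72520) with 36.6, 23.1 and 25.8 CPM against 8.48, 11.4 and 9.12 CPM, the allene oxide cyclase AOC3 (AT3G25780) with 88.8, 53.3 and 64.0 CPM against 33.1, 32.6 and 38.2 CPM and the ligase OPCL1 (AT1G20510) with 67.3, 79.2 and 73.8 CPM against 33.5, 43.4 and 42.1 CPM. OPR1 (AT1G76680), an oxophytodienoate reductase next to its close copy OPR2 (AT1G76690), had 303, 142 and 189 CPM at RB 10 µM, against 67.4, 43.7 and 39.1 CPM at RB 0 µM, and reads of the pair could be divided between them. LOX2 (AT3G45140), the main lipoxygenase of leaves in wounding, had 96.9, 123 and 198 CPM against 217, 266 and 240.1 CPM and was called lower, but not without replicate 1 (edgeR adjusted p = 0.192). The median over the 21 genes was -0.01, and their summed level was 2810 to 3120 CPM at RB 10 µM, against 2880 to 3380 CPM at RB 0 µM, which overlapped. Of 10 JAZ repressors of jasmonate signalling, 2 were called higher (20%, against 2.66% of all genes). JAZ5 (AT1G17380) was called with 35.9, 37.3 and 25.8 CPM against 12.1, 13.6 and 6.08 CPM, and JAZ6 (AT1G72450) with 43.7, 7.61 and 7.38 CPM against 1.61, 3.17 and 1.74 CPM only when replicate 1 was included (edgeR adjusted p = 0.0582 without it).

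Of 15 salicylate and immunity genes, 3 were called higher (20%, against 2.66% of all genes): NHL3 (AT5G06320) with 315, 308 and 281 CPM against 158, 185 and 194 CPM, EDS5 (AT4G39030), the chloroplast exporter of salicylate, with 26.1, 29.6 and 31.4 CPM against 15.7, 18.0 and 14.8 CPM, and CBP60G. Of 16 ethylene synthesis and receptor genes, 1 was called higher (6.25%, against 2.66% of all genes). It was ACS7 (AT4G26200), an enzyme that makes the ethylene precursor, with 67.3, 52.5 and 49.8 CPM against 35.9, 31.3 and 29.5 CPM (edgeR adjusted p = 0.00828, and 0.0577 without replicate 1). Abscisic acid and dehydration genes gave 1 fall among 28 (3.57%, against 1.07% of all genes). It was RD22 (AT5G25610), with 44.0, 65.6 and 65.8 CPM against 105, 115 and 130.2 CPM. No Aux/IAA repressor of 16 and no SAUR gene of 19 was called by edgeR or DESeq2, with 1 and 3 of them at an unadjusted p under 0.05.

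A run of 3 neighbouring genes of indole glucosinolate methyltransferases rose together. IGMT3 (AT1G21110) had 68.3, 57.5 and 72.0 CPM at RB 10 µM, against 7.27, 8.86 and 6.51 CPM at RB 0 µM, an 8.54-fold rise (log2 fold change 3.10, SE 0.20, edgeR adjusted p = 6.28e-09). IGMT2 (AT1G21120) had 50.4, 35.2 and 56.6 CPM against 7.67, 8.23 and 5.64 CPM, and IGMT4 (AT1G21130) had 75.7, 25.7 and 41.8 CPM against 6.46, 8.55 and 5.64 CPM. The genes are close copies, so that the share of each is uncertain, and they were chosen after values were seen. Of the 22 genes of the list for tryptophan, camalexin and indole glucosinolate synthesis, 4 were called higher (18.2%, against 2.66% of all genes) and only MYB51 without replicate 1. Each of these 4 is also counted in the MYB, UDP-glycosyltransferase or cytochrome P450 list. CYP81F2 (AT5G57220), which hydroxylates indole glucosinolates, had 45.4, 12.9 and 12.9 CPM against 4.84, 7.28 and 2.17 CPM, with replicate 1 high and the other 2 near equal.

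Conjugating enzymes, which attach glutathione or sugar to reactive compounds, were among the rises. Of 27 glutathione transferases, 7 were called higher (25.9%, against 2.66% of all genes) and none lower, and 5 without replicate 1. GSTF8 (AT2G47730) had 5335, 3712 and 4214 CPM at RB 10 µM, against 2127, 1838 and 2182 CPM at RB 0 µM (log2 fold change 1.11, SE 0.14, edgeR adjusted p = 4.44e-05). GSTU12 (AT1G69920) had 35.2, 31.5 and 17.2 CPM against 4.44, 5.38 and 8.25 CPM. GSTU7 (AT2G29420), GSTU10 (AT1G74590) and GSTU13 (AT1G27130) rose by log2 fold changes of 1.08, 1.26 and 0.46, the last being the smallest rise called among all genes. GSTU5 (AT2G29450) had 41.2, 1.31 and 1.23 CPM against 1.61, 0.317 and 0 CPM, a call that rested on replicate 1 (edgeR adjusted p = 0.844 without it). The summed level of the 27 genes was 7880 to 10500 CPM at RB 10 µM, against 5020 to 5720 CPM at RB 0 µM.

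Of 48 UDP-glycosyltransferases, 6 were called higher (12.5%, against 2.66% of all genes) and 1 lower (2.08%, against 1.07%). UGT73B5 (AT2G15480) had 132, 110.4 and 106 CPM at RB 10 µM, against 37.5, 41.2 and 36.0 CPM at RB 0 µM, and UGT76E12 (AT3G46660) had 8.81, 10.5 and 8.00 CPM against 1.21, 1.90 and 0.868 CPM. The fall was that of UGT72E1 (AT3G50740), with 189, 305 and 204 CPM against 383, 355 and 465 CPM, and was not called without replicate 1 (edgeR adjusted p = 0.144). Of 107 cytochromes P450, 6 were called higher (5.61%, against 2.66% of all genes) and 3 lower (2.8%, against 1.07%), with a median of -0.15. CYP706A2 (AT4G22710) had 58.1, 57.7 and 48.6 CPM at RB 10 µM, against 7.67, 9.18 and 6.95 CPM at RB 0 µM, a 6.84-fold rise, and CYP81D11 (AT3G28740) had 43.3, 41.7 and 27.1 CPM against 4.04, 6.33 and 5.21 CPM. Of 32 antioxidant enzymes, 1 was called higher by edgeR (3.12%, near the 2.66% of all genes) and 2 by DESeq2. The edgeR call was the monodehydroascorbate reductase gene AT3G09940, with 181, 207 and 146 CPM against 108, 126 and 82.5 CPM, and not without replicate 1 (edgeR adjusted p = 0.0989). The ascorbate peroxidase APX1 (AT1G07890) had 1680.4, 1448 and 1377 CPM against 1076, 926 and 1199 CPM and was not called (edgeR adjusted p = 0.0651).

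Sulfate assimilation, which supplies cysteine and through it glutathione, gave 7 calls higher (33.3%, against 2.66% of all genes) and 1 lower (4.76%, against 1.07%) among 21 genes, the same counts without replicate 1. LSU1 (AT3G49580), LSU2 (AT5G24660) and LSU3 (AT3G49570) are small genes known to rise when sulfur is short. LSU1 had 138, 96.0 and 113 CPM at RB 10 µM, against 32.3, 35.1 and 23.4 CPM at RB 0 µM (log2 fold change 1.92, SE 0.21, edgeR adjusted p = 8.88e-06). LSU2 had 128, 68.5 and 91.7 CPM against 31.1, 36.1 and 23.9 CPM, and LSU3 had 59.5, 36.5 and 42.4 CPM against 19.0, 14.9 and 13.5 CPM. In all 3 the lowest RB 10 µM library was above the highest untreated one. The reductases APR1 (AT4G04610) and APR3 (AT4G21990), the ATP sulfurylase APS3 (AT4G14680) and the serine acetyltransferase SERAT2;1 (AT1G55920), which catalyse steps of the pathway, rose 1.96-fold, 2.62-fold, 2.15-fold and 1.76-fold. SULTR1;2 (AT1G78000), the main importer of sulfate into roots, went the other way with 5.28, 6.56 and 4.92 CPM at RB 10 µM, against 12.9, 21.8 and 26.5 CPM at RB 0 µM. The summed level of the list was 3330 to 3790 CPM at RB 10 µM, against 2590 to 2830 CPM at RB 0 µM.

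Chaperone genes rose. Of 27 heat shock and chaperone genes, 26 were called higher (96.3%, against 2.66% of all genes) with and without replicate 1, with a median log2 fold change of 2.78 against 0.02 over all genes. This list, like the others, was chosen with earlier results of these data known. DREB2A is counted both in it and among the AP2/ERF factors. BAG6 (AT2G46240), a co-chaperone, had 296, 96.3 and 121 CPM at RB 10 µM, against 6.06, 4.43 and 3.47 CPM at RB 0 µM and the largest rise named, 36.4-fold. Genes outside that list were of the same kind: AT1G59860, a small heat shock protein gene, had 541, 362 and 407 CPM at RB 10 µM, against 13.7, 20.6 and 11.3 CPM at RB 0 µM. Of 15 heat shock factors, 4 were called higher (26.7%, against 2.66% of all genes). All 4 are also members of the list of 27 and already counted there. Among them were HSFA2 (AT2G26150) with 104, 44.3 and 79.4 CPM against 3.23, 1.90 and 2.17 CPM and HSFB1 (AT4G36990, listed as HSF4) with 462, 360.4 and 349 CPM against 204, 230.1 and 229 CPM. GolS1 (AT2G47180), the galactinol synthase that starts raffinose synthesis, had 244, 102 and 139 CPM against 22.6, 30.7 and 28.2 CPM. In the endoplasmic reticulum list 2 of 19 were called higher (10.5%, against 2.66% of all genes), and 1 without replicate 1. They were the chaperone BIP3 (AT1G09080) with 35.2, 11.8 and 22.8 CPM against 4.84, 6.33 and 4.34 CPM and NAC062 (AT3G49530), the second not without replicate 1 (edgeR adjusted p = 0.185).

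Of 31 U-box and RING ubiquitin ligases, 2 were called higher (6.45%, against 2.66% of all genes) and 1 lower (3.23%, against 1.07%), the same counts without replicate 1. None of 36 proteasome subunits was called (edgeR; the lowest adjusted p was 0.0588, for PAG1, AT2G27020), 2 were higher at an unadjusted p under 0.05 and DESeq2 called 1, and their summed level was 2440 to 2460 CPM at RB 10 µM, against 2440 to 2620 CPM at RB 0 µM. PUB23 (AT2G35930), a U-box ligase of immunity, had 85.6, 86.3 and 114 CPM against 32.7, 41.5 and 58.2 CPM. ATL31 (AT5G27420, listed as CNI1), a membrane RING ligase, had 223, 263 and 236 CPM against 95.3, 82.0 and 91.2 CPM, and the RING genes outside this list RDUF1 (AT3G46620) and RDUF2 (AT5G59550) had 228, 180.2 and 193 CPM against 107, 97.8 and 104 CPM and 169, 113 and 142 CPM against 66.2, 51.0 and 53.0 CPM. Each rise was without overlap between the groups. AT2G44578, a RING/U-box gene among the 15 largest rises, had 66.9, 40.9 and 46.1 CPM at RB 10 µM, against 2.42, 1.58 and 0.434 CPM at RB 0 µM, a 33.0-fold change (log2 fold change 5.04, SE 0.33, edgeR adjusted p = 6.45e-09). ATL15 (AT1G22500) fell, with 70.1, 118 and 77.5 CPM against 157, 207 and 236 CPM.

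Further called genes were chosen after values were seen and belong to no counted list. The zinc finger genes SZF1 (AT3G55980) and CZF1 (AT2G40140), close relatives that respond to salt, had 128, 132 and 126 CPM against 37.5, 49.4 and 44.3 CPM and 304, 250.3 and 287 CPM against 109, 100.3 and 122 CPM. CAF1b (AT5G22250), a deadenylase that shortens the tails of messenger RNA, had 127, 74.2 and 111 CPM against 38.4, 40.8 and 36.5 CPM. The splicing factors SR45a (AT1G07350) and SR30 (AT1G09140) had 335, 239 and 293 CPM against 109, 123 and 96.4 CPM and 146, 154 and 159 CPM against 93.7, 104 and 96.4 CPM. The rises of these 5 genes were all held without replicate 1. GRX480 (AT1G28480), a glutaredoxin of salicylate and jasmonate cross-talk, had 139, 156 and 104 CPM at RB 10 µM, against 40.8, 36.1 and 21.3 CPM at RB 0 µM. AT4G16820, annotated as an alpha/beta-hydrolase, had 3.17, 2.89 and 5.54 CPM against 0, 0 and 0 CPM, and against a floor of 3 reads over the untreated group it was at least 9.27-fold higher. DLAH (AT1G30370), another alpha/beta-hydrolase gene, had 57.8, 40.9 and 54.1 CPM against 6.46, 6.01 and 3.04 CPM.

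Mitochondrial dysfunction genes, nuclear genes known to rise when respiration is disturbed, gave 8 calls higher among 15 (53.3%, against 2.66% of all genes) and none lower, and 5 higher without replicate 1. Their median log2 fold change was 1.22, and their summed level was 501 to 633 CPM at RB 10 µM, against 208 to 225 CPM at RB 0 µM. DIC2 (AT4G24570), a dicarboxylate carrier of the inner membrane, had 114, 85.8 and 85.5 CPM at RB 10 µM, against 14.5, 16.1 and 14.8 CPM at RB 0 µM (log2 fold change 2.65, SE 0.17, edgeR adjusted p = 3.64e-09). DIC1 (AT2G22500, listed as UCP5), its relative, had 179, 109 and 142 CPM against 52.9, 56.0 and 53.0 CPM. OM66 (AT3G50930, listed as BCS1), an outer membrane ATPase, had 53.5, 27.3 and 50.4 CPM against 4.44, 6.33 and 3.91 CPM. AOX1A (AT3G22370), the alternative oxidase that bypasses part of the respiratory chain, had 84.9, 68.7 and 115 CPM against 38.4, 32.6 and 43.4 CPM. NDB2 (AT4G05020), an NAD(P)H dehydrogenase that works with it, had 27.1, 24.7 and 24.0 CPM against 16.1, 16.1 and 11.7 CPM and was not called without replicate 1 (edgeR adjusted p = 0.147). All 3 RB 10 µM libraries were above all untreated ones for each of these 5 genes.

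The mitochondrial dysfunction motif, to which NAC factors bind in several of these genes, was searched on both strands of the 250 bases before each gene start and is given by name, since its consensus needs letters for alternative bases. It was present in 3.11% of the genes called higher, in none of the 143 called lower and in 0.825% of all tested genes, a description that shows no binding. The window of NDB2 is shown as an instance whose match fits the consensus on either strand. It is chr4:2572177-2572426 on the plus strand of TAIR10.1 (RefSeq), with the match in capitals, and its first bases lie in the annotated neighbour AT4G05018.
NDB2: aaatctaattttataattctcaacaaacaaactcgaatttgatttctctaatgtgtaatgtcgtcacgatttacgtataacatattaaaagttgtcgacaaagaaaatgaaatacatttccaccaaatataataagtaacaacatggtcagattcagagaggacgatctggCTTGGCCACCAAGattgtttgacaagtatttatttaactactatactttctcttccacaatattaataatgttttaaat

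Of 48 light-harvesting and photosystem genes, 3 were called lower (6.25%, against 1.07% of all genes) and none higher. At an unadjusted p under 0.05, 19 were lower and 2 higher, and DESeq2 called 6 lower. Of the 48, 44 had a negative log2 fold change, and the median was -0.27 against 0.02 over all genes. Their summed level was 62100 to 71900 CPM at RB 10 µM, against 76800 to 82000 CPM at RB 0 µM. Those called were LHCB6 (AT1G15820), a minor antenna protein of photosystem II, with 1739, 1706 and 1598 CPM against 2315, 2266 and 2265 CPM, PSAD-2 (AT1G03130), a subunit of photosystem I, with 744, 741 and 804 CPM against 1036, 1042 and 1069.8 CPM, and LHCB2.1 (AT2G05100) with 90.5, 77.1 and 75.7 CPM against 101, 128 and 129.8 CPM. Only LHCB2.1 was called without replicate 1, and it belongs to a family of near-identical copies, so its own share is uncertain. Of 19 carbon fixation genes none was called by edgeR, 18 had a negative log2 fold change, 9 were lower at an unadjusted p under 0.05, DESeq2 called 2 lower, and the lowest edgeR adjusted p was 0.0538 for RBCS1B (AT5G38430). Among 26 chlorophyll synthesis genes there was 1 call, a rise (3.85%, near the 2.66% of all genes). It was FC1 (AT5G26030), a ferrochelatase of the haem branch, with 127, 90.8 and 95.4 CPM against 63.0, 53.8 and 63.0 CPM, while its sister FC2 (AT2G30390) had 28.2, 26.8 and 41.2 CPM against 54.5, 44.0 and 49.5 CPM (edgeR adjusted p = 0.0784). ELIP1 (AT3G22840), an early light-induced protein that binds pigment, had 24.7, 22.0 and 13.5 CPM against 8.88, 13.0 and 9.12 CPM and was not called without replicate 1 (edgeR adjusted p = 0.17).

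**Figure D4:**
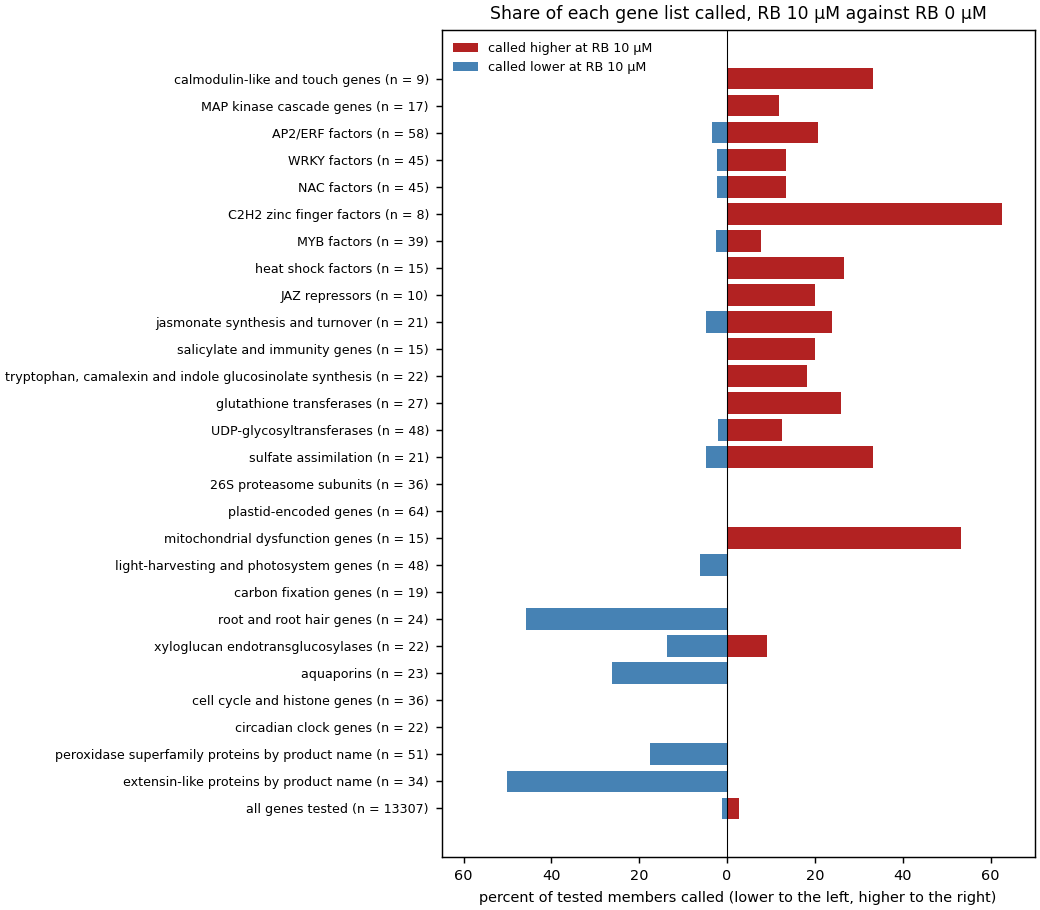
Percent of the tested members of 27 gene lists that were called higher (red, to the right) or lower (blue, to the left) at RB 10 µM against RB 0 µM, with all genes tested in the last bar pair. Calls of the C2H2, mitochondrial dysfunction and calmodulin-like lists lie on the right, the sulfate list has 7 calls on the right and 1 on the left, and those of the root hair, extensin-like, aquaporin and peroxidase lists on the left, and the proteasome, cell cycle, clock, carbon fixation and plastid-encoded lists have none.

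Among root hair genes, many fell. Root hairs are outgrowths of root epidermal cells and grow at their own tips. Their walls are loosened by expansins and built with extensins and other proline-rich proteins that peroxidases can cross-link. Of 24 root and root hair genes, 11 were called lower (45.8%, against 1.07% of all genes) and none higher, and 9 without replicate 1. The median log2 fold change was -0.97, 23 of the 24 were negative, and the summed level was 653 to 1160 CPM at RB 10 µM, against 1320 to 1640 CPM at RB 0 µM. In whole seedlings, fewer cells of a type and less RNA per cell cannot be told apart.

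PRP3 (AT3G62680), a proline-rich wall protein of root hairs, had 9.86, 15.2 and 11.1 CPM at RB 10 µM, against 72.3, 76.3 and 79.0 CPM at RB 0 µM (log2 fold change -2.62, SE 0.25, edgeR adjusted p = 1.02e-06). LRX1 (AT1G12040), a leucine-rich repeat extensin that shapes the root hair wall, had 1.41, 2.36 and 1.85 CPM at RB 10 µM, against 20.6, 18.7 and 20.8 CPM at RB 0 µM. EXPA7 (AT1G12560) and EXPA18 (AT1G62980), the root hair expansins, had 3.17, 5.25 and 6.77 CPM against 18.2, 17.7 and 14.8 CPM and 3.87, 4.98 and 4.31 CPM against 21.8, 20.3 and 25.6 CPM. In all 4 the highest RB 10 µM library was less than 0.5 times the lowest untreated one. AGP3 (AT4G40090), an arabinogalactan protein gene, had 19.7, 37.0 and 14.8 CPM against 113, 92.4 and 92.9 CPM. RHS12 (AT3G10710), named for its root hair specific expression and chosen after values were seen, had 1.06, 0.525 and 1.85 CPM against 6.46, 7.60 and 5.21 CPM (edgeR adjusted p = 0.0341, and 0.0869 without replicate 1).

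The root hair element, the site by which the root hair factor RHD6 and its relatives are known to act, was searched on both strands of the same 250-base windows and is named only, since its consensus needs letters for alternative bases. It was present in 4 of the 11 root and root hair genes called lower (36.4%), in 5.59% of all genes called lower, in 1.13% of those called higher and in 0.742% of all tested genes, as a description with no test. The share in root and root hair genes that were not called was not counted, so the 36.4% cannot be tied to the fall. The 4 windows are shown because they carry the element in the genes that fell, each read 5′ to 3′ on the plus strand of TAIR10.1 (RefSeq) up to the base before the annotated start, with the match in capitals. They are chr1:4276255-4276504 for EXPA7, chr1:23331313-23331562 for EXPA18, chr1:4069742-4069991 for LRX1 and chr3:23182472-23182721 for PRP3. The match is on the plus strand in both expansins and on the minus strand in LRX1 and PRP3, and part of the EXPA18 window lies in the annotated neighbour AT1G62978.
EXPA7: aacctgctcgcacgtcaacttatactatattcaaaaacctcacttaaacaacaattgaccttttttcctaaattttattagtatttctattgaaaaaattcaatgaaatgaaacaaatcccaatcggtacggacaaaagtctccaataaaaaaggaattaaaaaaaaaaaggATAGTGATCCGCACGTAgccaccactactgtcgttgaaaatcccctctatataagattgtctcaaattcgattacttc
EXPA18: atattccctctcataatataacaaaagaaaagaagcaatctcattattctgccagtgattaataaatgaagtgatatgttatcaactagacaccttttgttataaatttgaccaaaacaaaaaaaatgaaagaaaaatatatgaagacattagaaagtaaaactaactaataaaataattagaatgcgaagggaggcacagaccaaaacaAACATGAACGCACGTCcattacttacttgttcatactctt
LRX1: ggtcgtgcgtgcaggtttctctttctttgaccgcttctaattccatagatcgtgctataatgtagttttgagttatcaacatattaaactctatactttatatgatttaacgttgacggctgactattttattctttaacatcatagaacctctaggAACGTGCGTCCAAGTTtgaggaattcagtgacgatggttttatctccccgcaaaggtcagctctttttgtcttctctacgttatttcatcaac
PRP3: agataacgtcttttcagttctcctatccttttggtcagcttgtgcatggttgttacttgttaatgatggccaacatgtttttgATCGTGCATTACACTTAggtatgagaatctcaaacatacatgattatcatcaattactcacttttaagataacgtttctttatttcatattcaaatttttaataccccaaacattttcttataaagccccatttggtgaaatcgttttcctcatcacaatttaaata

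**Figure D5:**
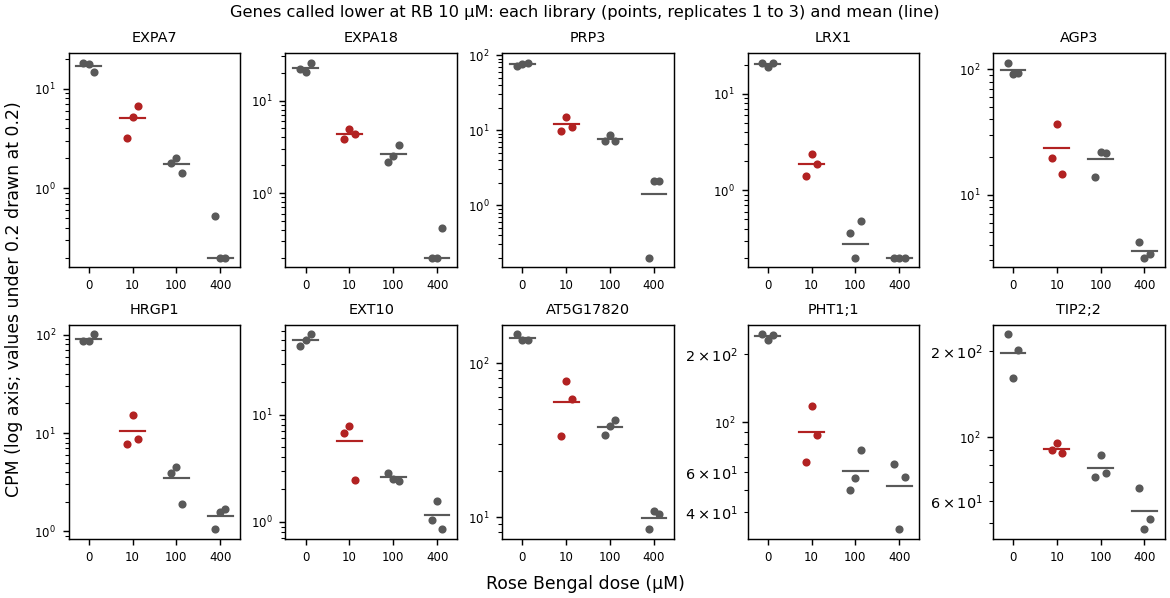
Level in CPM (log axis, values under 0.2 drawn at 0.2) of 10 genes called lower at RB 10 µM, in each library (points) and as the mean of 3 libraries (line), at RB 0, 10, 100 and 400 µM, with RB 10 µM in red. The RB 10 µM libraries of each gene lie below all untreated ones, and EXPA7, EXPA18, LRX1 and PRP3 are lowest at 400 µM.

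Many extensins fell. Of 34 extensin-like proteins collected by product name after values were seen, 17 were called lower (50%, against 1.07% of all genes) and none higher, and 14 without replicate 1. HRGP1 (AT3G54590), a hydroxyproline-rich glycoprotein gene, had 7.75, 15.2 and 8.61 CPM at RB 10 µM, against 86.4, 86.4 and 101 CPM at RB 0 µM (log2 fold change -3.05, SE 0.24, edgeR adjusted p = 6.70e-08). Its neighbour AT3G54580, a proline-rich extensin-like gene, had 20.8, 24.1 and 20.9 CPM against 116, 133 and 137 CPM. EXT10 (AT5G06640), EXT6 (AT2G24980), EXT12 (AT4G13390) and EXT11 (AT5G49080) fell by 3.01, 2.65, 2.48 and 4.08 on the log2 scale. These genes hold repeats and resemble each other, so reads near their 3′ ends may not be unique to a gene. Not all wall protein genes fell: AGP1 (AT5G64310), an arabinogalactan protein gene, had 385, 219 and 252 CPM at RB 10 µM, against 131, 131 and 113 CPM at RB 0 µM. It was the only gene called higher by edgeR (1.92%, against 2.66% of all genes) among 52 extensins, leucine-rich repeat extensins and arabinogalactan proteins. Of these, 9 were called lower (17.3%, against 1.07%). At an unadjusted p under 0.05, 5 of the 52 were higher and 12 lower, and DESeq2 called 2 higher and 9 lower.

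Xyloglucan endotransglucosylases, which cut and rejoin a wall polymer, went in both directions, with 2 called higher (9.09%, against 2.66% of all genes) and 3 lower (13.6%, against 1.07%) of 22. XTH23 (AT4G25810, listed as XTR6) had 356, 331 and 220.2 CPM at RB 10 µM, against 145, 161 and 124 CPM at RB 0 µM. Its direct neighbour on the chromosome, XTH14 (AT4G25820), had 10.6, 29.4 and 20.9 CPM at RB 10 µM, against 79.9, 76.3 and 80.3 CPM at RB 0 µM. They were the only adjacent pair of called genes with opposite signs, among 17 adjacent pairs that both rose, 5 that both fell and this 1. The other calls were a rise of XTH18 (AT4G30280), not called without replicate 1 (edgeR adjusted p = 0.189), and falls of XTH26 (AT4G28850) with 2.11, 0 and 0.615 CPM against 7.27, 6.65 and 10.4 CPM and XTH12 (AT5G57530) with 0, 1.31 and 0.615 CPM against 4.04, 7.28 and 6.51 CPM. XTH12 was not called without replicate 1 either (edgeR adjusted p = 0.12). Of 16 expansins, the 2 of root hairs were the only ones called (12.5% lower, against 1.07% of all genes). Both are already counted among the root and root hair genes.

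Some secreted peroxidases fell. Of 51 genes with a peroxidase superfamily product name, a list added after values were seen, 9 were called lower (17.6%, against 1.07% of all genes) and none higher, the same counts without replicate 1. The median log2 fold change of the 51 was -0.22, and 19 were positive. A list of 8 class III peroxidases collected by symbol had 1 called lower (12.5%), 4 positive values and a median of 0.06. AT5G17820 had 33.8, 76.3 and 58.4 CPM at RB 10 µM, against 153, 141 and 140.2 CPM at RB 0 µM. AT1G30870 had 12.3, 16.8 and 9.84 CPM against 52.9, 40.2 and 59.5 CPM. The neighbours AT5G64100, AT5G64110 and AT5G64120 had 338, 565 and 529 CPM against 1152, 1112 and 1563 CPM, 27.8, 27.0 and 23.4 CPM against 84.0, 81.7 and 89.4 CPM and 1353, 1653 and 1243 CPM against 1972, 3104 and 4491 CPM. In all 5 genes every RB 10 µM library was below every untreated one, with a wide spread between the untreated libraries for AT5G64120. DOX1 (AT3G01420), which carries this product name but is an alpha-dioxygenase, had 157, 175 and 165 CPM against 261, 291 and 332 CPM. LAC7 (AT3G09220), a laccase gene, had 28.5, 32.3 and 29.5 CPM against 80.3, 78.8 and 107 CPM.

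Some water channels and transporters were called lower. Of 23 aquaporins, 6 were called lower (26.1%, against 1.07% of all genes) and none higher, and 4 were lower without replicate 1 (against 0.676% of all genes). The summed level of the 23 was 8060 to 9220 CPM at RB 10 µM, against 10800 to 11800 CPM at RB 0 µM. TIP2;2 (AT4G17340), a channel of the vacuole membrane, had 90.2, 95.2 and 88.0 CPM at RB 10 µM, against 229, 161 and 202 CPM at RB 0 µM (log2 fold change -1.11, SE 0.16, edgeR adjusted p = 1.76e-04). PIP1A (AT3G61430) and PIP2;4 (AT5G60660), channels of the plasma membrane, had 465, 424 and 447 CPM against 734, 651 and 921 CPM and 16.6, 22.8 and 19.7 CPM against 59.3, 50.3 and 38.2 CPM. PHT1;1 (AT5G43350), a phosphate importer of roots, had 66.9, 118 and 87.4 CPM at RB 10 µM, against 244, 230.4 and 244 CPM at RB 0 µM. NRT2:1 (AT1G08090), a nitrate importer of roots, had 2.47, 1.31 and 3.69 CPM against 8.48, 6.65 and 9.55 CPM and IRT2 (AT4G19680), an iron transporter, 0.704, 1.31 and 1.23 CPM against 4.44, 5.38 and 8.25 CPM, and neither was called without replicate 1 (edgeR adjusted p = 0.113 and 0.156). STP1 (AT1G11260), a sugar importer, had 1539, 1447 and 1630.3 CPM against 2156, 2256 and 2645 CPM.

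A set of abundant genes fell by less than 2-fold. The cuticle genes KCS6 (AT1G68530), which lengthens wax precursors, and CYP86A2 (AT4G00360), of cutin synthesis, had 149, 213 and 207 CPM against 284, 318 and 359 CPM and 137, 177 and 177 CPM against 256, 246 and 324 CPM. PBP1 (AT3G16420), JAL33 (AT3G16450), JAL34 (AT3G16460) and NAI2 (AT3G15950), which belong to the endoplasmic reticulum bodies and their beta-glucosidase complex, fell by 0.63, 0.60, 0.59 and 0.56 on the log2 scale, and none was called without replicate 1, where their adjusted p (edgeR) ran from 0.0553 to 0.143. These 4 were chosen after values were seen. The Kunitz protease inhibitor gene KTI1 (AT1G73260) had 1370.1, 1434 and 1238 CPM at RB 10 µM, against 2180.1, 2145 and 2710.0 CPM at RB 0 µM. The steepest fall among genes of at least 10 CPM was that of AT3G43850, an uncharacterized gene, with 4.58, 0.787 and 0 CPM at RB 10 µM, against 182, 54.4 and 92.0 CPM at RB 0 µM, where the untreated libraries themselves differed more than 3 times. UCC3 (AT3G60280), a uclacyanin gene, had no read in any RB 10 µM library, against 4.84, 1.90 and 4.34 CPM at RB 0 µM. With a floor of 3 reads over the RB 10 µM group its level was at most 0.103 times that of RB 0 µM.

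Marker lists of cell types were compared to see what the libraries held. The summed level of 7 guard cell and epidermis markers was 2590 to 3100 CPM at RB 10 µM, against 3390 to 4340 CPM at RB 0 µM. All 7 log2 fold changes were negative and 1 gene (KCS6) was called lower (14.3%, against 1.07% of all genes). The 2 pollen and seed markers detected summed to 2.62 CPM or less at RB 10 µM and to 6.01 CPM or less at RB 0 µM, near the worth of a few reads. Root, green tissue and epidermis markers were thus all lower in sum at RB 10 µM, with no overlap between the groups, and the part that tissue shares had in the falls above was not tested.

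The higher doses are given beside the low one, with the same untreated libraries behind them. Against RB 0 µM, 354 genes were called higher and 143 lower at 10 µM, 974 (7.32%) and 561 (4.22%) at 100 µM and 1212 (9.11%) and 856 (6.43%) at 400 µM. RB 100 µM against RB 10 µM gave 396 rises (2.98%) and 199 falls (1.5%), and RB 400 µM against RB 10 µM gave 621 rises (4.67%) and 401 falls (3.01%). ERF13 averaged 131 ± 30.7 CPM at 100 µM and 174 ± 12.8 CPM at 400 µM (SD, n = 3 each), 2.58 higher on the log2 scale at 400 µM than at 10 µM (edgeR adjusted p = 7.81e-07). DIC2 averaged 221 ± 15.4 and 349 ± 25.2 CPM at 100 and 400 µM, and SYP122 averaged 546 ± 128 and 731 ± 47.0 CPM. PP2-B13 (AT1G56240), a phloem lectin-related gene chosen after values were seen, had 16.2, 17.1 and 15.4 CPM at RB 10 µM, against 2.83, 5.06 and 2.60 CPM at RB 0 µM, and averaged 85.8 ± 14.5 CPM at 100 µM and 176 ± 28.4 CPM at 400 µM, a further log2 difference of 3.43 between 400 and 10 µM (edgeR adjusted p = 2.10e-08). For these genes RB 10 µM was well short of the level at the highest dose.

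Some rises at 10 µM were smaller or not seen at the highest dose. LSU1 averaged 119 ± 24.9 CPM at 100 µM and 67.6 ± 14.1 CPM at 400 µM, lower at 400 µM than at 10 µM by a log2 difference of -0.77 (edgeR adjusted p = 0.025). AT1G59860 averaged 386 ± 24.3 and 221 ± 11.6 CPM, with a log2 difference of -0.98 between 400 and 10 µM (edgeR adjusted p = 9.54e-04). CDC48B (AT3G53230), a gene for an AAA-type ATPase chosen after values were seen, had 174, 137 and 175 CPM at RB 10 µM, against 77.9, 82.6 and 74.7 CPM at RB 0 µM, and averaged 101 ± 3.75 CPM at 400 µM (edgeR adjusted p = 0.00409 between 400 and 10 µM). In LSU1 and AT1G59860 replicate 1 was the highest of the RB 10 µM libraries. UBQ3 and AT4G27090, both led by replicate 1 at 10 µM, averaged 21.3 ± 7.51 and 16.8 ± 2.40 CPM at 400 µM, far below that replicate. For UBQ3 this mean was near the untreated level, and for AT4G27090 it lay above each untreated library.

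Falls were followed in the same way. EXPA7 averaged 1.74 ± 0.289 CPM at 100 µM and 0.174 ± 0.302 CPM at 400 µM, and LRX1 averaged 0.278 ± 0.248 CPM at 100 µM with no read in any library at 400 µM. For PRP3 the means were 7.61 ± 0.783 and 1.40 ± 1.22 CPM, with a log2 difference of -3.04 between 400 and 10 µM (edgeR adjusted p = 1.34e-04). Between 400 and 10 µM, 12 of the 24 root and root hair genes were called lower, against 3.01% of all genes. The light-harvesting and photosystem list gave 0 calls lower and 2 higher among 48 between these doses, where 4.67% of all genes were called higher. Its median against RB 0 µM was -0.28 at 100 µM and -0.23 at 400 µM, beside -0.27 at 10 µM. PSAD-2 averaged 707 ± 23.8 and 725 ± 58.4 CPM at 100 and 400 µM, near its level at 10 µM.

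No gene was called apart at RB 10 µM, that is, different from 0, 100 and 400 µM in the same direction. The count was 0 in edgeR by the largest of the 3 p-values with Benjamini-Hochberg adjustment, and 0 in DESeq2. At an unadjusted p under 0.05, 217 genes (1.63%) stood higher and 29 (0.218%) lower at 10 µM than at every other dose in edgeR, and 158 in DESeq2 in either direction.

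Several gene groups gave no call at RB 10 µM. Over all genes 3.73% were called, a share at which lists this small, here and above, would hold few calls or none. By edgeR none was called among 36 cell cycle and histone genes, 22 circadian clock genes, 7 DNA damage response genes, 11 reference genes and the superoxide markers that the study follows, of which 3 of 4 were in the table. At an unadjusted p under 0.05 there were 4, 3, 1, 4 and 0 genes of these lists, and DESeq2 called 1 cell cycle and histone gene and none in the other 4 lists. Of the 4 singlet oxygen markers of the study 2 were called higher (50%, against 2.66% of all genes). They were BAP1 (AT3G61190) with 149, 118 and 113 CPM against 78.7, 60.5 and 69.9 CPM and AT5G13200 with 29.2, 35.9 and 47.4 CPM against 19.0, 25.6 and 20.8 CPM. Among the reference genes the actins ACT2 (AT3G18780), ACT7 (AT5G09810) and ACT8 (AT1G49240) were high in RB 10 µM replicate 1: ACT7 had 104, 19.1 and 13.5 CPM at RB 10 µM, against 16.1, 15.5 and 13.5 CPM at RB 0 µM. UBQ10 (AT4G05320) had 7404, 6396 and 5946 CPM against 4813, 5319 and 5865 CPM (edgeR adjusted p = 0.266). Of 27 sugar starvation and dark-induced genes 2 were called lower (7.41%, against 1.07% of all genes). Of 28 nitrate, phosphate and iron genes the 2 calls, both lower (7.14%), were PHT1;1 and NRT2:1.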

How the data were processed

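MARS-seq reads (3′ ends, no filter on molecular identifiers) were made into counts by the authors with bcl2fastq, cutadapt, STAR on Araport 11 and HTSeq-count. The deposited table holds raw counts, counts divided by a DESeq2 size factor for each library (a normalized signal) and regularized log2 values. Only the raw counts were tested here, since the signal and log2 columns that the authors deposited derive from them. The genes deposited had more than 5 reads in at least 1 library.

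Counts were tested with edgeR 4.0.16 (quasi-likelihood, TMM factors, R 4.3.3) in 1 fit over the 12 libraries. Genes with at least 5 reads in at least 1 library entered, which removed none. P-values were adjusted by Benjamini-Hochberg over all 13307 genes, and genes with an adjusted p under 0.05 were called. The SE of a log2 fold change was its size divided by the square root of F. Where a dose had no read, folds were bounded with a floor of 3 reads over the group. The code was tested on simulated data. Alternatives used edgeR again and DESeq2 1.42.0, and figures matplotlib 3.10.9 under Python 3.11.15.

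Symbols and sequences came from RefSeq TAIR10.1 and matched 13214 IDs (99.3%). The gene lists and the comparison were chosen with earlier results of these data known. Some genes belong to several lists, so the counts of the lists are not independent of each other. The genes named were the 15 largest rises and the 15 largest falls (called, without overlap, mean of 10 CPM or more in the higher dose), the 10 smallest p-values, up to 4 genes of each list by smallest p, and genes whose RB 10 µM libraries lay apart from all other doses. After values were seen, 115 further genes were added, and only some of them are marked so above. Also after values were seen, 5 lists were built by product name, and 50 wrong matches were removed from the lists.

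Same-numbered libraries of RB 10 µM and RB 0 µM were checked for pairing through their deviations from the dose means, which had correlations of -0.0583, 0.0245 and 0.0889. The numbers were therefore not taken as pairs. Same-numbered libraries of the other dose pairs had correlations from -0.362 to 0.419. The highest was for replicate 1 of RB 10 µM and RB 100 µM. Libraries with different numbers reached 0.404, for RB 400 µM replicate 2 and RB 100 µM replicate 1. The alternatives were other scalings, filters, tests and thresholds, a replicate block, and fits without each library.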

Additional observations from a re-analysis of the deposited data

How the results depend on the processing

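Of the 241 named genes called between RB 10 µM and RB 0 µM, 128 kept their call and sign under every alternative run, and none changed sign. The main counts were 354 genes higher and 143 lower, 497 in all. They became 360 and 132 with DESeq2 size factors, 379 and 123 with library totals alone, 358 and 156 under the stricter filter (10 reads in 3 libraries), 372 and 150 with the DESeq2 Wald test, and 351 and 160 with only the 6 libraries compared. Without a filter the counts were unchanged, since every deposited gene had passed it. The replicate block over all 12 libraries left 337 higher and 131 lower. The numbers gave no sign of pairing between RB 10 µM and RB 0 µM.

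A requirement of 2-fold gave 316 calls, 63 of them lower. An adjusted p under 0.01 gave 302 calls, 229 higher and 73 lower. Leaving out 1 library at a time gave 313 to 638 calls, 244 to 449 higher and 69 to 189 lower. The lowest total came without RB 0 µM replicate 3 and the highest without RB 100 µM replicate 1, which changes the shared spread. The single RB 10 µM library whose code begins with 5 (replicate 1) gave 546 genes higher, and the pair whose codes begin with 6 gave 90 lower. With that single library, 106 genes lay apart from all other doses. Both single-library counts take their spread from the other doses alone and describe that library, not RB 10 µM.

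Between doses, RB 100 µM against RB 10 µM had 595 calls, 272 with the code-6 libraries alone, 287 at 2-fold, 183 at adjusted p under 0.01, and 226 to 1535 when 1 library was left out. RB 400 µM against RB 10 µM had 1022 calls, 560 at 2-fold, 481 at adjusted p under 0.01, and 600 to 1375 when 1 library was left out. The causes of these changes were not tested. Reads of 3′ ends do not separate isoforms, and at a few reads a library, differences in genes of low level were not detectable at this depth.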
